A study of Mus musculus with 2 samples.

Results

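The interferon-stimulated genes examined here are 37 mouse genes, picked by symbol, that cells are known to switch on in response to interferon. For each of them, the FPKM (the fragments counted on a transcript, divided by its length in kilobases and by the library size) of all protein-coding RefSeq transcripts listed under the gene were added together in each library. Protein-coding transcripts were listed for 35 of the 37 genes, out of 20250 genes in all. The other 2, *Mx1* and *Mx2*, were listed only as non-coding transcripts and are described separately. Of the 35 genes, 30 had 1 transcript and 5 had several (*Ifih1*, *Ifitm1*, *Isg20*, *Iigp1* and *Zbp1*), which gave 40 transcripts, and the authors' quantification status was OK for all 35 genes in both libraries.

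RNA-seq was available from 1 library of *Ebf1* -/- pre-pro-B cells and 1 library of *Rag2* -/- pro-B cells, both on a C57BL/6 background, so differences between them have no replicate check and none was tested. Pre-pro-B cells are lymphoid progenitors that lack *Ebf1*, a transcription factor needed for B cell specification, and pro-B cells are committed to the B lineage but, without *Rag2*, cannot rearrange their antigen receptor genes. The pre-pro-B cells came from the livers of female embryos and were given Il-7 (5 ng/mL), Scf (10 ng/mL) and Flt3l (10 ng/mL), whereas the pro-B cells came from the bone marrow of adult males and were given Il-7 (5 ng/mL) alone. Both were grown on OP-9 cells, a stromal line that sustains lymphoid progenitors, and were separated from the stroma by letting stromal cells settle onto plastic. Cell type therefore cannot be told apart from genotype, sex, age, tissue of origin or cytokines. No interferon treatment is named for either culture, and the question asked here was how much of this gene group each cell type expressed.

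Interferons are secreted proteins that warn cells of infection. Type I interferons bind the receptor chains Ifnar1 and Ifnar2 and act through the kinases Jak1 and Tyk2, and a complex that holds Stat2 and Irf9 then enters the nucleus and binds the interferon-stimulated response element (ISRE). Interferon gamma acts through Ifngr1 and Ifngr2 and leads to binding at the gamma-activated sequence (GAS). Many of the target genes have a low level without added interferon, kept up by small amounts of interferon or by other factors, and their products sense foreign RNA, block virus entry or release, halt translation, or damp the signal again.

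Several members carry the ISRE core in front of or just after their start site, and these stretches are shown here because they are the feature the group is best known for. RefSeq promoter windows, reaching from 250 bases before the annotated start to 50 bases after it (build GRCm38.p6), were on hand for 27 of the 35 members. *Rtp4*, *Usp18*, *Parp14*, *Oas2*, *Dhx58*, *Parp9*, *Iigp1* and *Zbp1* had no entry. Each line below gives 30 bases of the gene's own strand, 5′ to 3′. The capitals mark a match to the ISRE core, defined as GAAA, any 2 bases and GAAA, or its reverse complement. Further matches that overlap the marked one, in *Bst2*, *Irgm1* and *Isg15*, are not marked.
*Bst2*: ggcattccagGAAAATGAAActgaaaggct
*Igtp*: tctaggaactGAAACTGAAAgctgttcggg
*Irgm2*: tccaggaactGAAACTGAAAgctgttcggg
*Irgm1*: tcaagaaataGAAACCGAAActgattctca
*Isg15*: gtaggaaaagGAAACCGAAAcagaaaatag
*Ifit1*: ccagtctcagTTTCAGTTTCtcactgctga
*Stat2*: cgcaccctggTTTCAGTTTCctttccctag
*Ifitm2*: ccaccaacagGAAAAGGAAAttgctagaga
The *Bst2* stretch lies at chr8:71537583-71537612 on the minus strand, *Igtp* at chr11:58199512-58199541 and *Irgm2* at chr11:58214903-58214932 on the plus strand, and *Irgm1* at chr11:48871425-48871454 on the minus strand. The *Isg15* stretch lies at chr4:156200871-156200900 (minus strand), *Ifit1* at chr19:34640794-34640823 (plus strand), *Stat2* at chr10:128270266-128270295 (plus strand) and *Ifitm2* at chr7:140955988-140956017 (minus strand). The stretches of the neighbouring GTPase genes *Igtp* and *Irgm2* matched at 29 of 30 bases.

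Most members were at a low or moderate level, and more of them were lower in the pro-B library than higher. In pre-pro-B cells, 24 of the 35 members (68.6%) reached an FPKM of 1, against 49.5% of all genes, and 10 reached an FPKM of 10. In pro-B cells, 20 members (57.1%) reached an FPKM of 1, against 46.2% of all genes, and 7 reached an FPKM of 10. The median FPKM of the members was 4.64 in the pre-pro-B library and 1.97 in the pro-B library, and their FPKM summed to 373 and 185.

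On the log2 scale with 1 added to each FPKM, 13 members were at least 2-fold lower in the pro-B library (37.1%), 2 were at least 2-fold higher (5.71%) and 20 lay within 2-fold. Among all 20250 genes, 9.94% were lower and 6.34% were higher by the same rule. Among the 10131 genes with a mean FPKM of at least 1 over both libraries, 17.9% were lower and 12.2% were higher, and of the 24 members in that set 12 were lower and 2 were higher. The median log2 ratio (pro-B over pre-pro-B) was -0.56 over the 35 members, against 0 over all genes and -0.13 over genes with a mean FPKM of at least 1. The members that were lower were *Ifitm1*, *Bst2*, *Rtp4*, *Oasl2*, *Parp12*, *Ddx58*, *Usp18*, *Ifih1*, *Parp14*, *Irgm2*, *Ifitm3*, *Igtp* and *Oas2*, and those that were higher were *Ifit2* and *Xaf1*.

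**Figure D1:**
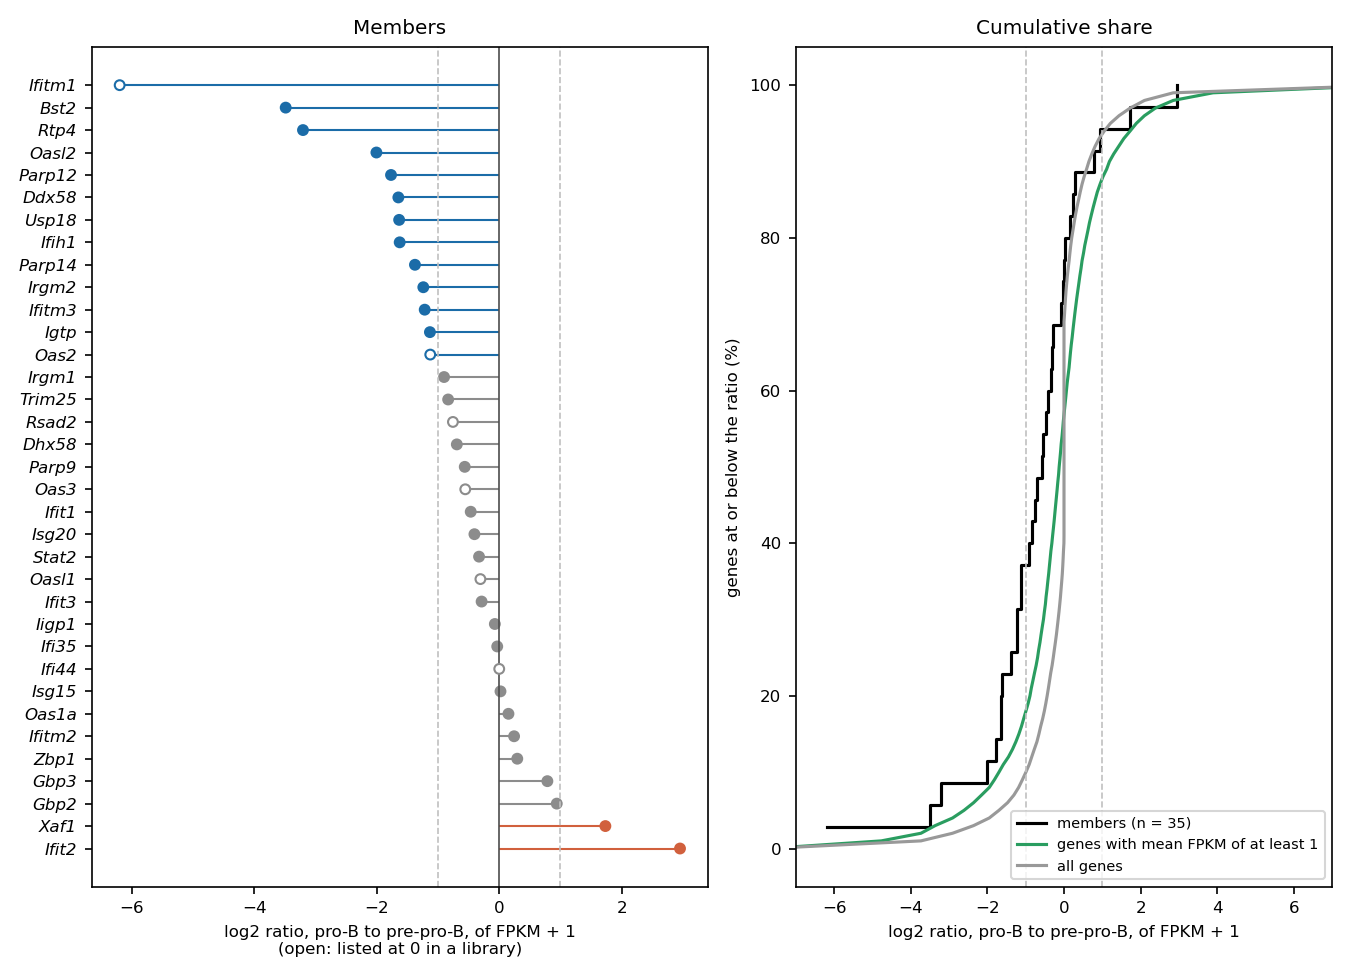
Left, log2 ratio of the FPKM (pro-B over pre-pro-B), with 1 added to each, for the 35 members (blue, at least 2-fold lower; orange, at least 2-fold higher; grey, within 2-fold; dashed lines, 2-fold; open points, listed at 0 in a library). Right, the cumulative share of genes at or below each ratio. It is drawn for the 35 members without a filter, for the genes with a mean FPKM of at least 1, and for all genes. Their medians are -0.56, -0.13 and 0, in that order, and 37.1%, 17.9% and 9.94% lie at or below the lower 2-fold limit. The 24 members with a mean FPKM of at least 1, not drawn apart, had a median of -1.02 and 12 of them were lower.

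The only error the FPKM table holds is Cuffdiff's 95% confidence interval, which comes from a model of a single library and does not cover the spread between cultures. Of 32 member transcripts with an FPKM above 0 in both libraries, 0 had intervals that did not overlap between the cell types, against 3.15% of 14908 protein-coding transcripts. By these intervals no member above 0 in both libraries was separated between them. For members listed at 0, the deposited interval has a width of 0 as well. No read counts were used here, so fragments were approximated from the FPKM, the transcript length and the roughly 90000000 reads per library, and 3 fragments, the level that a count of 0 allows, corresponded to FPKM of 0.00460 to 0.0532 over the members.

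**Figure D2:**
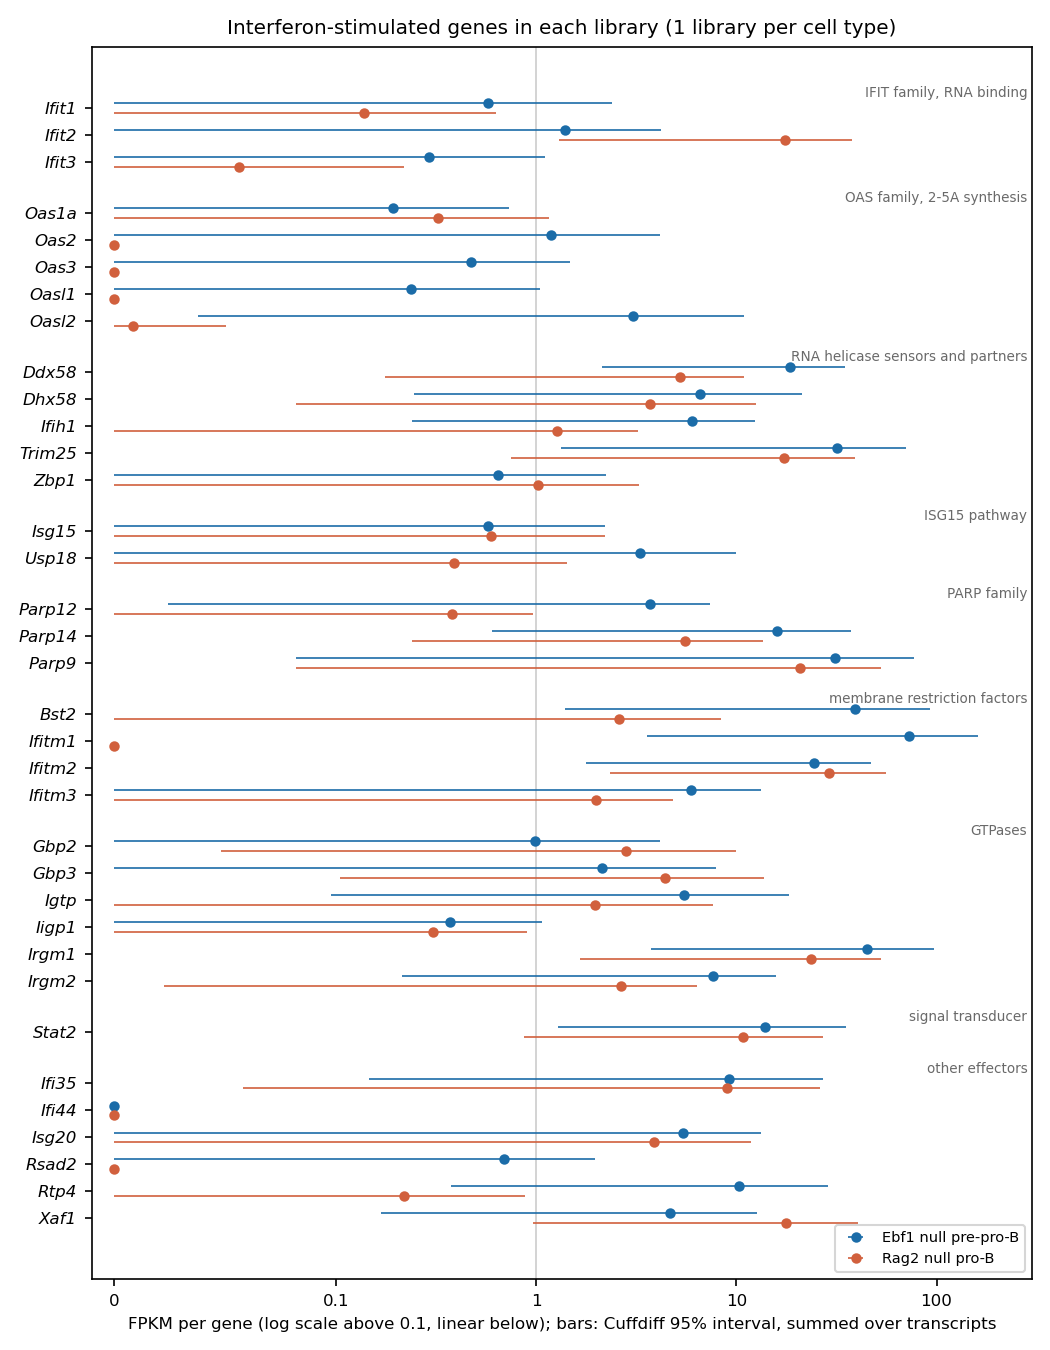
FPKM of the 35 members in the library of *Ebf1* -/- pre-pro-B cells (blue) and of *Rag2* -/- pro-B cells (orange), grouped by role, on an axis that is linear below 0.1 and logarithmic above. Bars are Cuffdiff's 95% intervals, added over transcripts, and overlap between the libraries for every member above 0 in both.

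Of the membrane restriction factors, 3 of 4 were lower in the pro-B library, with a summed FPKM of 142 in the pre-pro-B library and 33.6 in the pro-B library. The share of lower genes was 9.94% over all genes and 17.9% over those with a mean FPKM of at least 1. *Ifitm1* (mm9 chromosome 7, from 148153328 to 148155726) encodes a small membrane protein that hinders virus entry. It had an FPKM of 72.6 in the pre-pro-B library, where it was the most abundant of the 35 members and stood at percentile 96.0 of all genes, and it was listed at 0 in the pro-B library. Transcript NM_001112715 carried 94.8% of the pre-pro-B level, at an FPKM of 68.8 (interval 3.55 to 141), and NM_026820 carried the rest.

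*Ifitm2* and *Ifitm3*, which restrict viruses that enter through endosomes, flank *Ifitm1* on chromosome 7, and of these *Ifitm3* was lower in the pro-B library while *Ifitm2* lay within 2-fold. *Ifitm2* had an FPKM of 24.4 in the pre-pro-B library (interval 1.76 to 46.9) and of 29.0 in the pro-B library (interval 2.33 to 55.7), where it was the most abundant member. *Ifitm3* had an FPKM of 5.92 in the pre-pro-B library and 1.98 in the pro-B library, a log2 ratio of -1.22. Between *Ifitm2* and *Ifitm1* lie 11.5 kb of mm9, and between *Ifitm1* and *Ifitm3* 39.8 kb, so genes that were lower and a gene that lay within 2-fold stood side by side in this cluster. Paralogs of this kind share stretches of sequence, and Cuffdiff's multi-read correction divides shared reads between them by a model, so the split among them is uncertain.

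*Bst2* (mm9 chromosome 8, from 74058161 to 74061336) encodes tetherin, which holds budding virus particles at the cell surface and in mice also serves as a surface marker of plasmacytoid dendritic cells. Its FPKM was 39.3 in the pre-pro-B library (interval 1.39 to 92.6) and 2.59 in the pro-B library (interval 0 to 8.41), a 15.2-fold lower level in the pro-B library with a log2 ratio of -3.49 on FPKM + 1. Of the 9 plasmacytoid dendritic cell markers listed, 6 were lower and 2 higher in the pro-B library, beside 9.94% and 6.34% of all genes. Their FPKM summed to 717 in the pre-pro-B library and 244 in the pro-B library. The surface marker *Siglech* had an FPKM of 54.3 in the pre-pro-B library and 0.236 in the pro-B library, and *Klk1* was listed at 0 in both. The 2 higher ones were the transcription factor genes *Tcf4*, with an FPKM of 35.3 in the pre-pro-B library and 75.8 in the pro-B library, and *Spib*, with an FPKM of 13.6 and 90.9. The part of such cells in the *Bst2* difference was not tested. In bulk RNA, fewer cells of a type and less RNA per cell cannot be told apart.

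The upstream stretches of *Bst2* and *Ifitm1*, which had the lowest log2 ratios of the group on FPKM + 1, are shown to set their letters side by side. With a pseudocount of 0.5 or 0.1, or with TPM, *Rtp4* had a lower ratio than *Bst2* (-3.90 against -3.69, -5.02 against -3.87, and -4.28 against -3.84). Each is the 200 bases before the annotated start (GRCm38.p6, 5′ to 3′ on the gene's strand), and the capitals mark ISRE core matches and the GAS motif, TTC, any 3 bases and GAA.
*Bst2* (chr8:71537473-71537672, minus strand): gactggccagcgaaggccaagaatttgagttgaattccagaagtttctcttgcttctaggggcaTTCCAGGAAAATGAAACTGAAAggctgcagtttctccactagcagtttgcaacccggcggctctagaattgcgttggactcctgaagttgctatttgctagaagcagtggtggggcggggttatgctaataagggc
*Ifitm1* (chr7:140967876-140968075, plus strand): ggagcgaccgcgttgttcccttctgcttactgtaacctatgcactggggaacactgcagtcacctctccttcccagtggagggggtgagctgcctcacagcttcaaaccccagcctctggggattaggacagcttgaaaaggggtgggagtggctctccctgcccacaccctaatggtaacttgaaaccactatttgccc
In *Bst2*, 2 overlapping ISRE core matches start at bases -130 and -124 from the start site, and a GAS match at -136 to -128 runs into the first of them. The *Ifitm1* stretch holds neither set of letters.

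The cytosolic RNA sensors and their partners were detected in both cell types, with 2 of 5 lower in the pro-B library and 3 within 2-fold. By the same rule, 9.94% of all genes were lower, and 17.9% of those with a mean FPKM of at least 1. *Ddx58*, which encodes RIG-I, a sensor of short double-stranded RNA and RNA with a 5′ triphosphate, had an FPKM of 18.5 in the pre-pro-B library (interval 2.13 to 35.0) and 5.21 in the pro-B library (interval 0.176 to 11.0), a 3.54-fold lower level in the pro-B library. *Ifih1*, which encodes MDA5, a sensor of long double-stranded RNA, had an FPKM of 6.02 in the pre-pro-B library and 1.27 in the pro-B library, a 4.73-fold lower level. The receptor genes for both kinds of RNA thus had the same direction and a similar size of difference, with log2 ratios of -1.65 and -1.63.

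The relatives and partners of these sensors were closer between the cell types. *Dhx58*, which encodes LGP2, a helicase that modulates both sensors, had an FPKM of 6.59 in the pre-pro-B library and 3.70 in the pro-B library. *Trim25*, a ubiquitin ligase known for activating RIG-I, had an FPKM of 31.6 in the pre-pro-B library and 17.3 in the pro-B library. *Zbp1*, which senses left-handed nucleic acid and can trigger necroptosis, was low in both, with an FPKM of 0.644 in the pre-pro-B library and 1.02 in the pro-B library.

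The 5 genes of the oligoadenylate synthetase family, some of which make the messenger that activates the ribonuclease RNase L, had low levels in both libraries. *Oasl2* (mm9 chromosome 5, from 115346943 to 115362254), a relative with a ubiquitin-like tail, had the highest level of the 5, with an FPKM of 3.05 in the pre-pro-B library and 0.00859 in the pro-B library. The pro-B value stands for about 2.42 fragments, below the floor of 3, so no fold is given. *Oas2* had an FPKM of 1.18 in the pre-pro-B library and was listed at 0 in the pro-B library. *Oas1a*, *Oas3* and *Oasl1* stayed below an FPKM of 1 in both libraries, and *Oas3* and *Oasl1* were listed at 0 in the pro-B library. The summed FPKM of the family was 5.14 in the pre-pro-B library and 0.332 in the pro-B library.

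The IFIT genes, which bind foreign RNA and hinder its translation, were split within a single gene cluster. *Ifit2* (mm9 chromosome 19, from 34625184 to 34651024) reached an FPKM of 1.39 in the pre-pro-B library (interval 0 to 4.18) and 17.5 in the pro-B library (interval 1.30 to 37.9), a 12.6-fold higher level in the pro-B library and the largest positive log2 ratio of the group, at 2.95. *Ifit3* begins 6.99 kb beyond *Ifit2*, and *Ifit1* 51.9 kb beyond *Ifit3*, and both had an FPKM below 1 in either library. The neighbours of *Ifit2*, with log2 ratios of -0.29 and -0.47, therefore lay within 2-fold on this scale and on the other side of 0.

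The genes of the ISG15 pathway also stood apart from each other. *Usp18*, which encodes the protease that removes Isg15 from proteins and also damps signalling at the type I receptor, had an FPKM of 3.31 in the pre-pro-B library and 0.386 in the pro-B library, an 8.56-fold lower level in the pro-B library. *Isg15* itself, the ubiquitin-like modifier, is given because of its values, which were seen first, with an FPKM of 0.573 in the pre-pro-B library and 0.595 in the pro-B library, and thus showed next to no difference at a low level in both.

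Of the 3 ADP-ribosyltransferases of the group, 2 were lower in the pro-B library. So were 9.94% of all genes and 17.9% of those with a mean FPKM of at least 1. *Parp12*, which acts against viral translation, had an FPKM of 3.69 in the pre-pro-B library and 0.377 in the pro-B library, a 9.78-fold lower level. *Parp14* had an FPKM of 15.9 in the pre-pro-B library and 5.51 in the pro-B library, a 2.89-fold lower level. *Parp9*, which works with the ubiquitin ligase Dtx3l and lies 55.1 kb from *Parp14* on chromosome 16, had an FPKM of 31.2 in the pre-pro-B library and 20.8 in the pro-B library and lay within 2-fold.

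The interferon-inducible GTPases, which act on the vacuoles of intracellular pathogens, showed both directions. The 3 immunity-related GTPases *Irgm1*, *Irgm2* and *Igtp* all had lower values in the pro-B library. *Irgm1* had an FPKM of 44.7 in the pre-pro-B library and 23.5 in the pro-B library, second among the members in either library and within 2-fold on the log2 scale, at -0.90. *Irgm2* had an FPKM of 7.62 in the pre-pro-B library and 2.65 in the pro-B library, and *Igtp*, its neighbour 7.38 kb away on chromosome 11, an FPKM of 5.50 and 1.97, so that their log2 ratios, -1.24 and -1.13, were close. The guanylate-binding protein genes had higher values in the pro-B library. *Gbp2* had an FPKM of 0.983 in the pre-pro-B library and 2.80 in the pro-B library, and *Gbp3*, 47.5 kb away on chromosome 3, an FPKM of 2.12 and 4.39. Their log2 ratios on FPKM + 1, 0.94 and 0.79, lay just inside the 2-fold limit, although the FPKM themselves differed 2.85-fold and 2.07-fold. *Iigp1* was below an FPKM of 1 in both libraries. As with the Ifitm genes, the division of reads among close GTPase relatives is uncertain.

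Of the remaining effectors, *Rtp4* and *Xaf1* differed most and in opposite directions. *Rtp4* (mm9 chromosome 16, from 23610005 to 23614308), a receptor transporter protein, had an FPKM of 10.2 in the pre-pro-B library (interval 0.377 to 28.7) and 0.218 in the pro-B library (interval 0 to 0.879), a 46.9-fold lower level in the pro-B library with a log2 ratio of -3.21. *Xaf1* (mm9 chromosome 11, from 72115131 to 72127235), which encodes an antagonist of the apoptosis inhibitor XIAP, had an FPKM of 4.64 in the pre-pro-B library (interval 0.167 to 12.7) and 17.8 in the pro-B library (interval 0.958 to 40.5), a 3.83-fold higher level in the pro-B library. With *Ifit2*, it was among the 5 most abundant members in the pro-B library and not among the 5 most abundant in the pre-pro-B library.

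*Stat2*, the signal transducer that is itself an interferon target, had an FPKM of 13.9 in the pre-pro-B library and 10.8 in the pro-B library, and *Ifi35*, a partner of Nmi, an FPKM of 9.15 and 8.93. Both lay within 2-fold. *Isg20*, which encodes an RNA exonuclease, had a summed FPKM of 5.43 in the pre-pro-B library and 3.85 in the pro-B library, a log2 ratio of -0.41, but its transcripts differed. NM_020583 (1083 bases) carried all of the pre-pro-B level, at an FPKM of 5.43, and had an FPKM of 0.649 in the pro-B library. NM_001113527 (892 bases) was listed at 0 in the pre-pro-B library and had an FPKM of 3.20 in the pro-B library, 83.2% of the gene's level there. Cuffdiff divides the reads of overlapping transcripts by a model, so the sum is the firmer value.

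In total, 9 members stayed below an FPKM of 1 in both libraries: *Ifit1*, *Ifit3*, *Isg15*, *Oas1a*, *Oas3*, *Oasl1*, *Rsad2*, *Iigp1* and *Ifi44*. Their highest FPKM was 0.690. *Rsad2*, which encodes the antiviral enzyme viperin, was listed at 0 in the pro-B library, and *Ifi44* was listed at 0 in both libraries. Several of the genes best known from interferon-treated cells, *Isg15*, *Ifit1*, *Ifit3* and *Rsad2*, were thus among the 9 that stayed below an FPKM of 1 in both libraries. Others were above an FPKM of 1 in the pre-pro-B library and below it in the pro-B library. Among these were *Usp18* (3.31 in the pre-pro-B library), *Oasl2* (3.05) and the non-coding transcripts of *Mx1* (4.76) and *Mx2* (9.55).

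The levels were carried by a few genes, and these were partly different between the libraries. The 5 most abundant members held 58.8% of the summed FPKM in the pre-pro-B library and 58.7% in the pro-B library. In pre-pro-B cells they were *Ifitm1*, *Irgm1*, *Bst2*, *Trim25* and *Parp9*, and in the pro-B library *Ifitm2*, *Irgm1*, *Parp9*, *Xaf1* and *Ifit2*. The intervals of each set of 5 overlapped one another, so the order within the sets is not resolved.

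The upstream pathway was examined through lists of its ligands, receptors and adaptors. None of the 12 interferon ligand genes listed (*Ifnb1*, *Ifna1*, *Ifna2*, *Ifna4*, *Ifna5*, *Ifna11*, *Ifna13*, *Ifne*, *Ifnk*, *Ifng*, *Ifnl2* and *Ifnl3*) reached an FPKM of 1 in either library, and 9 were listed at 0 in both. The highest value was that of *Ifng*, with an FPKM of 0.186 in the pro-B library and 0.110 in the pre-pro-B library.

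All 15 receptor and signalling genes reached an FPKM of 1 in both libraries, and 9 were at least 2-fold lower in the pro-B library, 0 higher, with a median log2 ratio of -1.16, against 17.9% lower and 12.2% higher among genes with a mean FPKM of at least 1. Both chains of the type I receptor were lower, *Ifnar1* with an FPKM of 33.3 in the pre-pro-B library and 12.8 in the pro-B library, and *Ifnar2* with an FPKM of 146 and 24.4. The interferon gamma receptor lay within 2-fold, with an FPKM of 54.2 and 40.5 for *Ifngr1* and 11.9 and 22.1 for *Ifngr2*, in the same order. *Il10rb*, a chain shared by the interferon lambda receptor, had an FPKM of 38.3 in the pre-pro-B library and 4.47 in the pro-B library.

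Of the other signalling genes, *Irf9*, the DNA-binding partner of Stat2, was lower in the pro-B library, whereas *Stat2* lay within 2-fold. *Irf9* had an FPKM of 45.7 in the pre-pro-B library and 9.33 in the pro-B library. *Stat3* had an FPKM of 47.6 in the pre-pro-B library and 10.3 in the pro-B library. The feedback inhibitors *Socs1* and *Socs3* were also lower, with an FPKM of 6.41 and 4.83 in the pre-pro-B library and 2.30 and 1.62 in the pro-B library, as was the phosphatase gene *Ptpn6*, with an FPKM of 88.3 and 15.6. The kinase genes lay within 2-fold, with an FPKM of 45.8 and 36.7 for *Jak1*, 32.3 and 34.0 for *Jak2*, and 6.91 and 4.17 for *Tyk2*, and so did *Ptpn11*, with an FPKM of 35.1 and 23.5. A median-ratio scaling of the libraries left 8 of these 15 genes lower.

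Of 14 genes for adaptors, kinases and receptors that lead from nucleic acids to interferon, 6 were lower in the pro-B library and 0 higher, with a median log2 ratio of -0.70. Among all genes, 9.94% were lower and 6.34% higher. Among genes with a mean FPKM of at least 1, which include 13 of the 14, 17.9% were lower and 12.2% higher. *Unc93b1* lay just inside the 2-fold limit, with an FPKM of 33.4 in the pre-pro-B library and 67.6 in the pro-B library. *Myd88* lay just inside it on the lower side, with an FPKM of 16.0 and 7.53. A median-ratio scaling of the libraries left 5 of the 14 lower and 1 higher, and scaling to TPM gave 7 lower and 0 higher. *Sting1*, the adaptor for cytosolic DNA, had an FPKM of 101 in the pre-pro-B library and 6.87 in the pro-B library, and *Cgas*, the sensor that feeds it, an FPKM of 6.98 in the pre-pro-B library and was listed at 0 in the pro-B library. *Tlr7*, an endosomal RNA receptor, had an FPKM of 43.2 in the pre-pro-B library and 0.174 in the pro-B library, and *Irf7*, the interferon regulatory factor that amplifies type I interferon, an FPKM of 15.9 and 0.326. *Tlr9* and *Ticam1* were the other lower genes, with an FPKM of 2.07 and 4.51 in the pre-pro-B library and 0.171 and 1.70 in the pro-B library. *Mavs*, through which RIG-I and MDA5 signal, was close between the libraries, with an FPKM of 17.6 and 19.9.

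A further list of 45 interferon-stimulated genes, of which 42 had protein-coding rows, had 15 lower and 4 higher in the pro-B library and a median log2 ratio of -0.65, beside -0.56 for the 35 members and 9.94% lower and 6.34% higher among all genes (17.9% and 12.2% among those with a mean FPKM of at least 1). The 3 lowest ratios were those of *Slfn5* (FPKM 32.4 in the pre-pro-B library and 0.0798 in the pro-B library), *Lgals3bp* (35.2 and 0.347) and *Slfn8* (37.5 and 2.09). The 3 highest were those of *Ifi204* (0.259 and 9.74), *Tor3a* (2.53 and 14.1) and *Cd274*, which encodes PD-L1 (1.64 and 5.68).

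**Figure D3:**
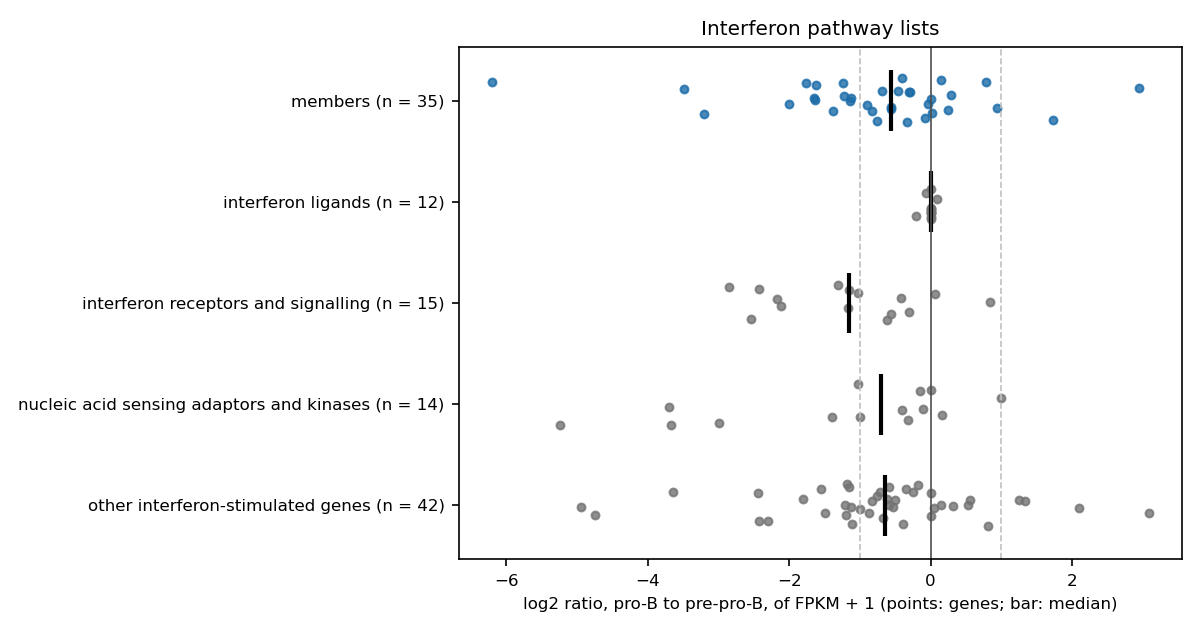
Log2 ratio of the FPKM (pro-B over pre-pro-B), with 1 added to each, for the 35 members and 4 lists of the interferon pathway, with a point per gene, a bar at each median and dashed lines at 2-fold. The medians are -0.56 for the members, 0 for the ligands, -1.16 for the receptors and signalling genes, -0.70 for the sensing adaptors and -0.65 for the other interferon-stimulated genes.

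Matches to the binding motifs were found in the promoter windows of lower members and of members within 2-fold, whereas of the 2 higher members only *Ifit2* held a match, to the GAS motif. The ISRE core was present, on either strand, in 17 of the 27 members with a window (63.0%), against 3.99% of 27025 mouse genes with a window of the same length. A longer ISRE, in which CT follows the second GAAA, was present in 9 of the 27 (33.3%), against 0.303% of genes. The GAS motif was present in 8 of the 27 (29.6%), against 9.55% of genes, and 5 members held both motifs, which overlapped in 2 promoters.

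The 17 members with an ISRE core match had 6 lower and 0 higher in the pro-B library, with a median log2 ratio of -0.55, and the 10 without a match had 3 lower and 2 higher, with a median of -0.36. The 6 were *Bst2*, *Ddx58*, *Ifih1*, *Ifitm3*, *Igtp* and *Irgm2*, and the match lay before the start site in *Bst2*, *Igtp* and *Irgm2* and after it in *Ddx58*, *Ifih1* and *Ifitm3*. The nearly identical stretches of *Igtp* and *Irgm2* shown above go with log2 ratios of -1.13 and -1.24, while the same 10 letters as in *Ifit1* stand before *Stat2*, and both of these lay within 2-fold. *Isg15*, with 3 overlapping matches between bases -78 and -57, had nearly equal FPKM in both libraries. Neither *Ifit2* nor *Xaf1*, the higher members, had an ISRE core in this window, and *Ifit2* had a GAS match at bases -241 to -233. By the longer ISRE, the 9 members with a match had 3 lower and 0 higher (median -0.47), and the 18 without had 6 lower and 2 higher (median -0.48). By the GAS motif, the 8 members with a match had 4 lower and 1 higher (median -0.77), and the 19 without had 5 lower and 1 higher (median -0.47). Among all genes, 9.94% were lower and 6.34% higher. A match says only that these letters are present, and other windows were not searched.

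**Figure D4:**
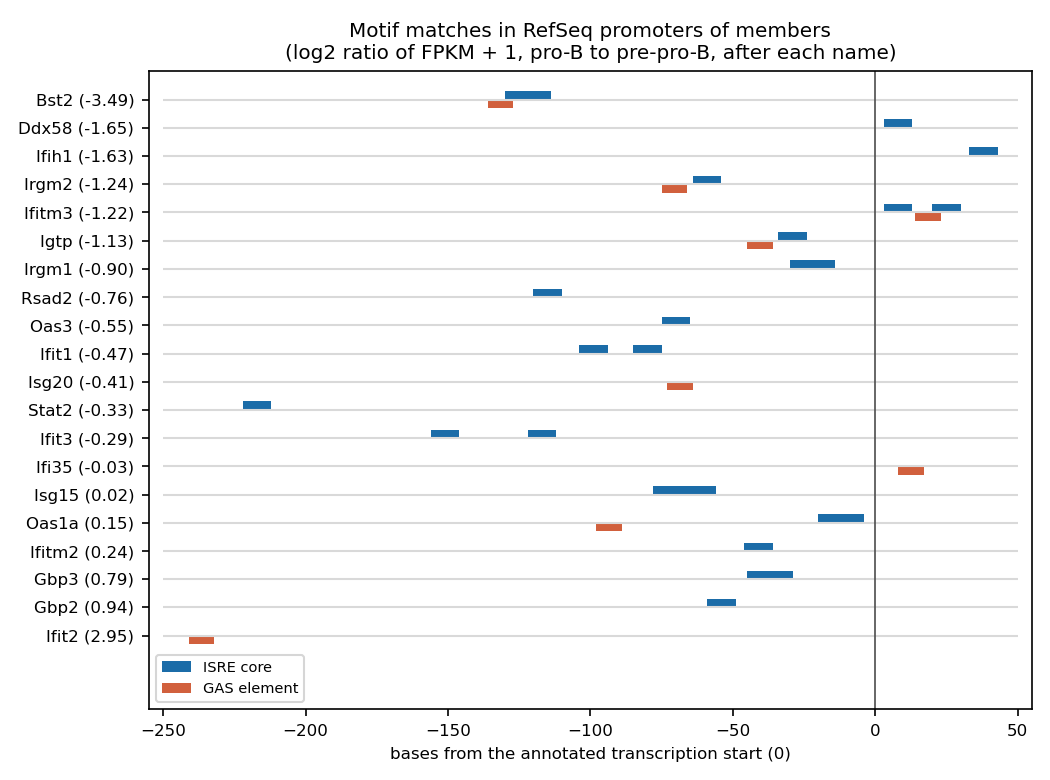
Position of ISRE core matches (blue) and GAS matches (orange) in the RefSeq promoter windows of the members that hold any, in bases from the annotated start, ordered by log2 ratio of FPKM + 1 (after each name). Only members that hold a match are drawn, so the order runs from *Bst2* (-3.49) to *Ifit2* (2.95), the last with a GAS match alone. *Ifitm1* (-6.20), the member with the lowest ratio, holds neither motif in its window and is not drawn. The matches of *Bst2* lie between bases -136 and -115.

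Values of the targeted genes and of cell type markers in the same libraries were as follows. *Ebf1* had an FPKM of 64.0 in the *Ebf1* -/- library and 273 in the other, a log2 ratio (pro-B over pre-pro-B) of 2.07. *Rag2* had an FPKM of 22.9 in the *Rag2* -/- library and 34.5 in the other, which lay within 2-fold at -0.57. Each targeted gene was above 0 in its own null cells. Since FPKM are given per whole transcript, they do not show whether a deleted part was read. All 9 B lineage markers were higher in the pro-B library and 4 of 5 progenitor markers were lower. Of 11 myeloid markers measured, 7 were lower in the pro-B library and 0 higher, beside 9.94% and 6.34% of all genes. Their FPKM summed to 958 in the pre-pro-B library and 9.42 in the pro-B library. Most of the pre-pro-B sum came from *Tyrobp* (FPKM 463 in the pre-pro-B library and 1.28 in the pro-B library) and *Fcer1g* (395 and 1.46). *Csf1r*, *Cd14* and *Csf3r* stayed below an FPKM of 1 in both libraries, and *Elane* was listed at 0 in both. Of 8 T and NK cell markers, 4 were lower (sums of 28.4 and 3.47, mostly from *Klrb1c* at 18.3 and 3.37, with *Gzmb* listed at 0 in both). Of 12 stromal markers, 3 were higher and 1 was lower (sums of 20.6 and 18.2, with *Dcn* listed at 0 in both). The lower stromal marker, *Pdgfrb*, had an FPKM of 15.9 in the pre-pro-B library and 0.377 in the pro-B library and so carried most of the pre-pro-B sum, and the other stromal markers above 0 all had higher values in the pro-B library, with a median log2 ratio of 0.62 over the 12. The part of these cell types in the members' differences was not tested.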

How the data were processed

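Total RNA was depleted of ribosomal RNA and made into strand-specific libraries (RIN of 9.9), sequenced as single-end 97 bp reads to about 90000000 reads per library. The authors aligned the reads to mm9 and estimated FPKM for 30485 RefSeq transcripts; the submitters' processing notes name TopHat 1.5 and Cuffdiff 2.1.1. The authors applied multi-read and fragment bias correction and no scaling between libraries. A deposited table of the authors' own comparison holds fold changes and p-values and was not used. Here the 26968 protein-coding rows (26580 accessions) were named through the RefSeq table of GRCm38.p6, which matched 26173 accessions, and FPKM were summed per gene. Locations are those of the FPKM table on mm9, and each of the 35 member loci overlapped the protein-coding gene of that name in an mm9 annotation. Ratios are log2((pro-B FPKM + 1)/(pre-pro-B FPKM + 1)), which understates the difference of low genes, and 2-fold was the limit. With 1 library per cell type no test was run. Intervals and floors cover counting error and Cuffdiff's model of 1 library only.

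All members were named. Values were given for each member that reached an FPKM of 1 in either library, and other members were given by range and count, with exceptions stated. Other lists were given by counts, with all ligands, the receptor and signalling genes (1 of which is not reported here by name), the 3 highest and 3 lowest of the further interferon-stimulated genes, and, chosen after their values were seen, the sensing genes and the markers named. The members and lists were chosen with earlier results of these data known. Motifs were searched on both strands, and where a gene had several windows a match in any counted. The alternatives were other pseudocounts, filters, scalings, transcript choices, limits and a longer motif. Computations used Python 3.11.15, numpy 2.4.6, pandas 2.3.3 and matplotlib 3.10.9, and the counting was tested on simulated data.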

Additional observations from a re-analysis of the deposited data

Results flagged for a closer look

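*Mx1* and *Mx2* belong to a family of genes for dynamin-like GTPases that block virus replication, and are among the best known interferon targets. In the FPKM table both appear only as non-coding RefSeq transcripts, which the sums over protein-coding transcripts leave out, and they were picked out here because they hold a signal above the level that a count of 0 allows. *Mx1* (NR_003520, mm9 chromosome 16, from 97668642 to 97684513) reached an FPKM of 4.76 in the pre-pro-B library (interval 0.0198 to 11.5) and 0.148 in the pro-B library (interval 0 to 0.453), with a floor of 0.0124. *Mx2* (NR_003508, chromosome 16, 97757688 to 97782508) had an FPKM of 9.55 in the pre-pro-B library (interval 0.333 to 19.5) and 0.237 in the pro-B library (interval 0 to 0.700), with a floor of 0.0138. Both genes had the direction of the 13 lower members, with intervals that overlapped between the libraries, and there is no replicate check. Values of transcripts listed as non-coding do not show that either gene made a working protein in these cells.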

How the results depend on the processing

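Over the pseudocounts, scalings, transcript choices and row filters tried, 13 to 18 of the 35 members were lower and 2 to 4 higher. The filter on a mean FPKM of at least 1 left 24 members, of which 12 were lower and 2 higher (genes passing it: 17.9% and 12.2%). With a pseudocount of 0.1 in place of 1, 4 members were higher and 18 lower (all genes: 2095, or 10.3%, higher and 3118, or 15.4%, lower) and the median log2 ratio was -1.32. The members added were *Gbp2* and *Gbp3* (higher) and *Ifit1*, *Ifit3*, *Oas3*, *Oasl1* and *Rsad2* (lower). With a 1.5-fold limit 4 were higher and 17 lower (all genes: 11.1% and 16.4%), and with a 4-fold limit 1 was higher and 4 lower (all genes: 2.23% and 3.88%). Scaling to TPM, with a shift of -0.09 in log2 before the pseudocount is added, lets a pseudocount of 1 weigh less by its construction and gave 3 higher and 16 lower (all genes: 7.24% and 13.4%). The longer ISRE was found in 33.3% of members. No member called in the main setting changed sign, which these settings could hardly bring about. A pseudocount cannot change the sign of a ratio, and the scalings shifted log2 by only -0.09 (TPM) and 0.09 (median-ratio). Members near 0 could change sign: *Ifi35* went from -0.03 to 0.05 under median-ratio scaling, and *Isg15* from 0.02 to -0.02 under TPM. *Isg20* passed the 2-fold limit, at -1.96, with its most abundant transcript alone. *Rsad2* and *Oas3*, both listed at 0 in pro-B cells, passed it under TPM, at -1.60 and -1.25, as did *Irgm1* at -1.01 and *Gbp2* at 1.16. No paired analysis was possible because each cell type has 1 library and no test was run.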
